A study of Gallus gallus with 5 samples.

Results

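Chromosomes 11 to 15 of the chicken, the larger microchromosomes, were described along their length in ChIP-seq peak lists of 2 histone arginine marks and of input chromatin. All peaks that the lists place on these 5 chromosomes were taken, whatever their value, which gave 57245 of the 425322 peaks in 5 lists. The lists came from immature (polychromatic) erythrocytes in G0, whose nuclei were fixed in 0.5% formaldehyde before the chromatin was sheared to about 200 bp; the labels give no treatment and no genetic change for any group. H3R2me2s, the symmetric dimethyl form of arginine 2 of histone H3, had 2 libraries, H4R3me2a, the asymmetric dimethyl form of arginine 3 of histone H4, had 2 libraries, and input chromatin, which saw no antibody, had 1. Each mark's replicate 1 came from a SOLiD run and was called against 1 control library that both marks shared. The Illumina libraries, replicate 2 and the input, were called without a control. The design text speaks of biological replicates, and no label names the animals, so the spread between the 2 libraries of a mark may be in part technical. Where 4 values follow each other below, they are those of H3R2me2s replicate 1 and replicate 2 and then of H4R3me2a replicate 1 and replicate 2.

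Bird genomes hold a few large macrochromosomes and many small microchromosomes, which are known for dense genes, high GC content, high recombination and a place in the inner nucleus. Arginine methyltransferases place both marks. PRMT5 makes symmetric dimethylarginine and PRMT1 is the main enzyme for the asymmetric form on histone H4, and both marks are known from active genes. The erythrocyte of birds keeps its nucleus, with chromatin that is largely condensed, and transcribes few genes. The peak lists hold no expression values, so the cell type was not checked against markers, and no genome of the files' build was used, so the genes and sequences under the regions were not determined. Positions are those of the deposited files.

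Several facts bear on all values that follow. The libraries held 10.3 to 35.1 M tags after filtering, and replicate 2 was the deeper one for both marks. Replicate number, platform, peak caller and use of a control changed together, so their parts in any difference between replicates cannot be told apart. In all 3 Illumina lists the alignment file number in the header was the one that the labels give to another Illumina sample, so every statement on replicate 2 and the input rests on the labels.

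Chromosomes 11 to 15 carried more peaks of both marks per Mb than the 5 largest autosomes in every ChIP list, and the input did so by only 1.03-fold. They made up 8.73% of the 1033 Mb spanned by peaks but held 14.98 and 12.1% of the peaks in the H3R2me2s lists and 15.5 and 12.5% in the H4R3me2a lists. Their share of the input peaks was 8.86%, close to their share of the length. Density was 172, 162, 134 and 157 peaks per Mb in the 4 ChIP lists and 10.02 in the input, against 68.0, 99.9, 49.1 and 93.4 on chromosomes 1 to 5 and 9.69 in the input there. Chromosomes 6 to 10 lay below them in each ChIP list with 122, 128, 90.8 and 124 peaks per Mb, and chromosomes 17 to 22 above them with 248, 217, 193 and 208.

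The ratio of density to that of chromosomes 1 to 5 was 2.52, 1.63, 2.72 and 1.68. Both replicate 1 libraries lay above both replicate 2 libraries, and the marks overlapped. Averaged by mark it came to 2.07 ± 0.635 (SD, n = 2) in H3R2me2s and 2.20 ± 0.736 (SD, n = 2) in H4R3me2a, a difference of 0.129 that was smaller than the spread between replicates (exact permutation test over libraries, two-sided p = 0.667, where 0.3333 is the smallest p this design allows). Within each replicate the difference was 0.201 and 0.0581, of one sign.

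**Figure D1:**
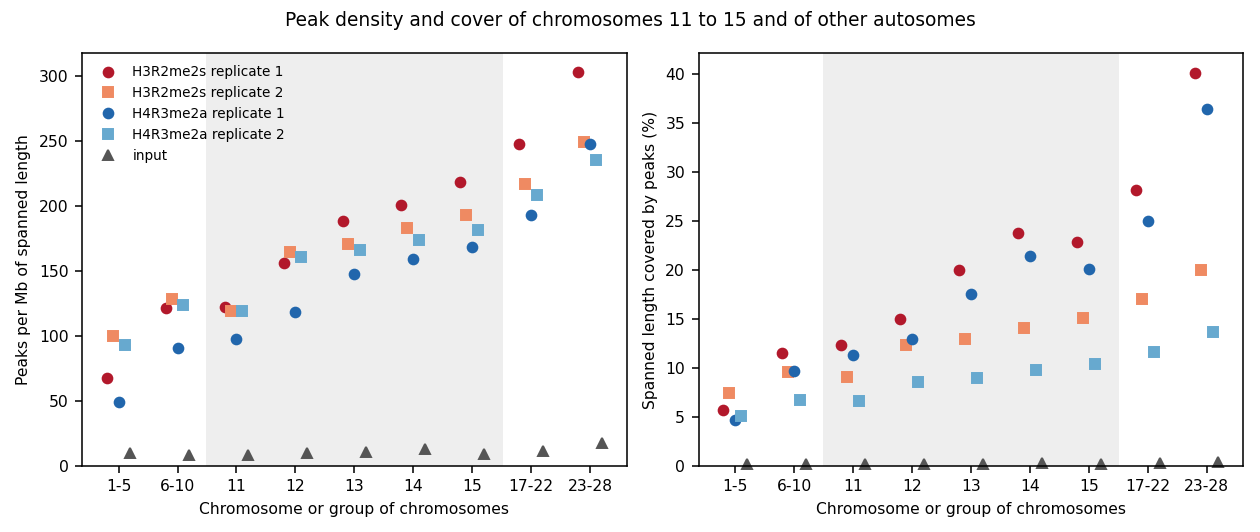
Peaks per Mb (left) and percent of spanned length covered by peaks (right) in each of the 5 lists, for chromosomes 11 to 15 (grey band) and for groups of other autosomes; each point is 1 list. H3R2me2s replicate 1 climbed from 122 peaks per Mb on chromosome 11 to 219 on chromosome 15, while the input stayed between 8.48 and 12.6.

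The 5 chromosomes formed a graded series. Density was higher on each next chromosome from 11 to 15 in all 4 ChIP lists, while the spanned length fell at every step, from 21.9 to 20.5, 18.9, 15.8 and 12.97 Mb. For H3R2me2s it went from 122 to 156, 188, 201 and 219 peaks per Mb in replicate 1 and from 119 to 165, 171, 183 and 193 in replicate 2. For H4R3me2a it went from 97.9 to 118, 147, 159 and 169 peaks per Mb in replicate 1 and from 120 to 161, 166, 174 and 182 in replicate 2. The input followed no such order, with 8.48, 9.74, 10.4, 12.6 and 9.26 peaks per Mb. Among the 27 autosomes in the lists, chromosome 11 ranked 20 or 21 from the densest and lay near the mean of chromosomes 6 to 10, while chromosome 15 ranked 12 or 13.

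Cover, the share of the spanned length under peaks, kept chromosome 11 lowest in all 4 ChIP lists but not chromosome 15 highest in all. It was 12.3, 15.01, 19.99, 23.8 and 22.8% from chromosome 11 to 15 for H3R2me2s replicate 1, and 9.04, 12.3, 12.9, 14.1 and 15.1% for replicate 2. For H4R3me2a it was 11.3, 12.95, 17.5, 21.4 and 20.1% in replicate 1 and 6.61, 8.53, 8.93, 9.80 and 10.4% in replicate 2. Chromosome 14 thus led in replicate 1 of both marks and chromosome 15 in replicate 2. Over the 5 chromosomes together cover was 18.1, 12.3, 16.0 and 8.63%, and 0.223% in the input.

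Replicate 1 lists held broad peaks that replicate 2 lists hardly had. Median width was 735, 628, 837 and 432 bp in the ChIP lists and 164 bp in the input. Peaks of 3 kb or more numbered 583 of 15469 for H3R2me2s replicate 1 and 656 of 12067 for H4R3me2a replicate 1, but 21 of 14636 and 3 of 14170 in the replicate 2 lists, and no input peak was that broad. The widest, at 21000 bp, was an H4R3me2a replicate 1 peak on chromosome 14. The fold enrichment that the authors' peak caller gave had a median of 10.4 and 15.4 in replicate 1 of the marks, above the 9.81 and 13.98 of all other chromosomes, and of 2.61 and 2.77 in replicate 2, below the 2.91 and 2.99 of all other chromosomes. The replicates therefore placed these chromosomes on opposite sides of the pool of all other chromosomes in fold. The split was not particular to them. Chromosomes 17 to 22 had medians of 10.74 and 16.12 in replicate 1 of the marks and 2.41 and 2.58 in replicate 2. On chromosomes 23 to 28 the medians were 11.34 and 16.96 in replicate 1 and 2.14 and 2.35 in replicate 2. Both groups thus lay further from the pool in the same directions.

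In 500 kb bins the marks fell into rich runs of 1 to 8 bins, and most of the bins outside them were not poor. A bin was called rich when its cover lay in the upper 25% of all 2064 bins of the genome in each of the 4 ChIP lists, and poor when it lay in the lower 25% in each. Of 181 bins on chromosomes 11 to 15, 87 were rich (48.1%), against 20.8% of the bins of the genome, and 20 were poor (11.05%), against 16.9%. The remaining 74 were neither. Rich bins made up 9.43% on chromosomes 1 to 5, 25.6% on chromosomes 6 to 10, 75.4% on chromosomes 17 to 22 and 94.8% on chromosomes 23 to 28. The count of rich bins depended on which peaks were kept by fold, here and in the genome. With only the upper 50% of each list by fold, 36 of the 181 bins were rich, against 9.21% of the genome, and 13 were poor, against 14.7%.

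Rich bins held 276, 232, 219 and 226 peaks per Mb, and their cover was 31.4, 18.1, 28.3 and 12.6%. Poor bins held 16.2, 27.9, 12.3 and 26.7 peaks per Mb and had a cover of 0.993, 1.87, 0.848 and 1.399%. The contrast between rich and poor bins was thus wider in the replicate 1 lists. Input cover was 0.312% in rich bins, 0.161% in the bins called neither and 0.0649% in poor bins, so input peaks moved in the same direction as the marks, at a small share of their cover. Their part in the pattern was not tested beyond leaving out the ChIP peaks that overlap an input peak. That left 84 rich and 18 poor bins, against 20.6 and 16.6% of the bins of the genome.

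**Figure D2:**
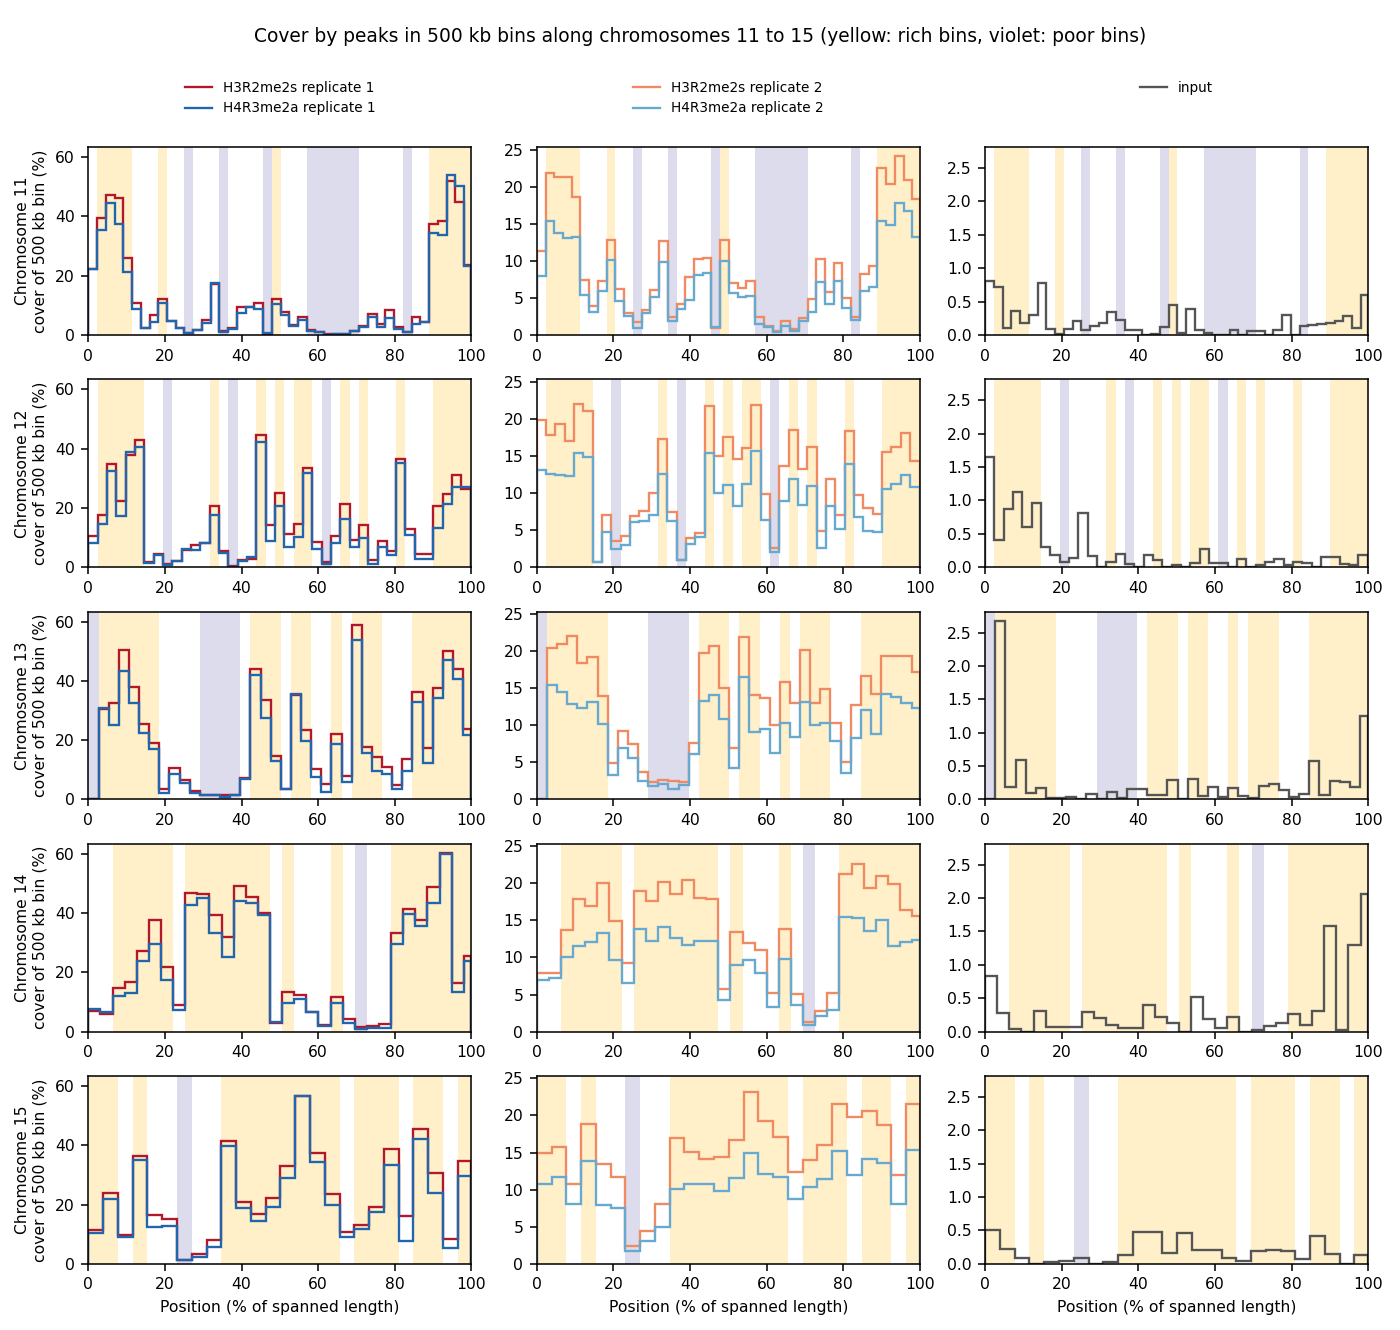
Cover by peaks (percent of each 500 kb bin) along chromosomes 11 to 15, with position as percent of the spanned length; columns show replicate 1 of both marks, replicate 2 of both marks and the input, each on its own scale. Yellow marks the 87 rich bins and violet the 20 poor bins, and the long violet band on chromosome 11 is its 3 Mb poor run.

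Chromosome 11 had most of its rich bins toward its ends and all of its poor bins in its inner part. Of its 44 bins 11 were rich and 10 poor, and 9 of the 12 bins within 3 Mb of an end were rich, against 2 of the 32 inner ones. Its longest rich run was the 5 bins at its far end, chr11:19500001-21928013, with a cover of 39.7, 21.4, 39.6 and 15.7%. The bin of highest rank there, chr11:20500001-21000000, was covered to 51.8, 24.1, 53.9 and 17.8% and held 9 input peaks. A run of 4 rich bins, chr11:500001-2500000, lay near the other end. Single rich bins stood at chr11:4000001-4500000 and chr11:10500001-11000000.

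The longest poor run of all 5 chromosomes lay on chromosome 11, at chr11:12500001-15500000. These 3 Mb held 42, 72, 34 and 60 ChIP peaks and 5 input peaks, with a cover of 0.825, 1.52, 0.745 and 1.09%. The lowest bin of the chromosome by rank, chr11:13500001-14000000, lay within it and held 2, 6, 1 and 5 ChIP peaks and no input peak. The run also contained a stretch of 267 kb with no peak in any list, chr11:14860712-15127557. Of the 50 kb bins of chromosome 11, 45 of 439 (10.3%) held no ChIP peak, the highest share of the 5 chromosomes, and 5.65% of such bins in the genome did. The 45 include bins in another peak-free stretch outside the run, chr11:2688179-3187889.

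The rich bins of chromosome 12 were broken into short pieces. It had 17 rich bins and 3 poor bins of 41, and its rich bins fell into 9 runs. The longest, chr12:500001-3000000, had 5 bins with a cover of 31.1, 19.5, 28.7 and 13.5%, and 85 input peaks lay in it. The last 4 bins, chr12:18500001-20536606, were also rich. The bin of highest rank was an isolated rich bin, chr12:9000001-9500000, with a cover of 44.5, 21.7, 42.2 and 15.4% and 3 input peaks. Its 3 poor bins each stood alone, and the one of lowest rank, chr12:7500001-8000000, held 2, 8, 1 and 10 ChIP peaks and 1 input peak.

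By peak count, the replicates parted most clearly among the end windows at the start of chromosome 12. By cover the first 500 kb of chromosome 11 parted further and the other way. It had 22.3 and 22.1% in replicate 1 of H3R2me2s and H4R3me2a against 11.4 and 7.94% in replicate 2. The first 500 kb of chromosome 12 held 50 and 31 peaks of H3R2me2s and H4R3me2a in replicate 1 but 125 and 120 in replicate 2. Cover in this window was 10.5 and 8.15% against 19.8 and 13.1%. Replicate 2 was above replicate 1 in both marks there. The same window held 20 input peaks with a cover of 1.66%, the highest input cover of the 10 end windows. Replicate 2 was called without a control, and the part of the input signal in this difference was not tested.

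Chromosome 13 had rich blocks at its far end and after its empty first 500 kb, and a broad poor trough between the latter and its middle. Of 38 bins 21 were rich and 5 poor. The runs at chr13:500001-3500000 and chr13:16000001-18911242 had 6 bins each, and the first had a cover of 32.6, 19.1, 28.5 and 13.1%. The trough, chr13:5500001-7500000, was a run of 4 poor bins that held 46, 70, 35 and 72 ChIP peaks and 7 input peaks. Of 2 bins tied for the highest rank, one was chr13:1500001-2000000, with a cover of 50.5, 22.01, 43.5 and 12.8%. The other, chr13:13000001-13500000, had a higher cover in replicate 1, 58.9% for H3R2me2s and 53.8% for H4R3me2a.

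Chromosome 14 was rich over most of its length, with 21 rich bins of 32 and a single poor one. Its longest rich runs were chr14:4000001-7500000 and chr14:12500001-15819350, each of 7 bins, and the first was covered to 42.7, 18.8, 39.03 and 12.7%. The poor bin, chr14:11000001-11500000, held 11, 13, 7 and 12 ChIP peaks and 1 input peak. By rank the highest bin was chr14:14000001-14500000, with a cover of 48.7, 20.99, 43.5 and 15.1%. That bin also held 26 input peaks, the most of any bin on the chromosome, which covered 1.58% of it. Input cover was higher, at 2.06% with 22 input peaks, in the shorter last bin, chr14:15500001-15819350. The neighbouring bin chr14:14500001-15000000 had an input cover of 0.0294% and the highest replicate 1 cover of all 181 bins, 60.3% for H3R2me2s and 59.9% for H4R3me2a.

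Chromosome 15, the shortest, had its longest rich run in the middle rather than near an end. It had 17 rich bins of 26 and 1 poor bin, and the run of 8 rich bins at chr15:4500001-8500000, 4 Mb long, was the longest of the 5 chromosomes. Its cover was 31.4, 17.1, 29.01 and 11.5%. The bin of highest rank, chr15:7000001-7500000, lay in this run, with a cover of 56.5, 23.2, 56.6 and 14.9% and 6 input peaks. The single poor bin, chr15:3000001-3500000, held 11, 16, 8 and 13 ChIP peaks and 3 input peaks.

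The spread along a chromosome narrowed from chromosome 11 to chromosome 15. The coefficient of variation of bin cover for H3R2me2s replicate 1 was 123% on chromosome 11, 84.2% on 12, 82.4% on 13, 74.9% on 14 and 61.6% on 15. For H4R3me2a replicate 1 it went from 129% to 69.0%, and for the replicate 2 lists from 77.5% to 33.3% and from 74.7% to 33.4%. Chromosome 11 was the most uneven in all 4 ChIP lists, and chromosome 15 the least uneven.

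Peaks of both marks were dense near the ends, but the outermost 250 kb were not where they were densest. The start of chromosome 13, whose first 500 kb held no peak, was taken here at the first peak of any list. Pooled over the 10 ends, H3R2me2s replicate 1 had 139 peaks per Mb in the outermost 250 kb, 298 between 1 and 2 Mb from the end and 136 beyond 4 Mb. H4R3me2a replicate 1 had 115, 232 and 106 peaks per Mb in the same zones. The replicate 2 lists had 171, 243 and 138 peaks per Mb for H3R2me2s and 168, 235 and 133 for H4R3me2a. Between 250 and 500 kb the 4 ChIP lists had 249, 227, 200 and 226 peaks per Mb. Between 500 kb and 1 Mb they had 281, 225, 226 and 225. Past the outermost 250 kb the replicate 2 lists thus changed little up to 2 Mb. The densest zone also differed from end to end. The input was instead densest in the outermost 250 kb, with 60 peaks per Mb there, 10 between 250 and 500 kb, 13.4 between 500 kb and 1 Mb, 14.9 between 1 and 2 Mb and 6.89 beyond 4 Mb. Counted from position 1 of chromosome 13, the outermost 250 kb held 127, 154, 105 and 150 ChIP peaks per Mb and 45.2 input peaks per Mb, and the zone between 1 and 2 Mb 295, 244, 229 and 237 ChIP peaks per Mb.

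**Figure D3:**
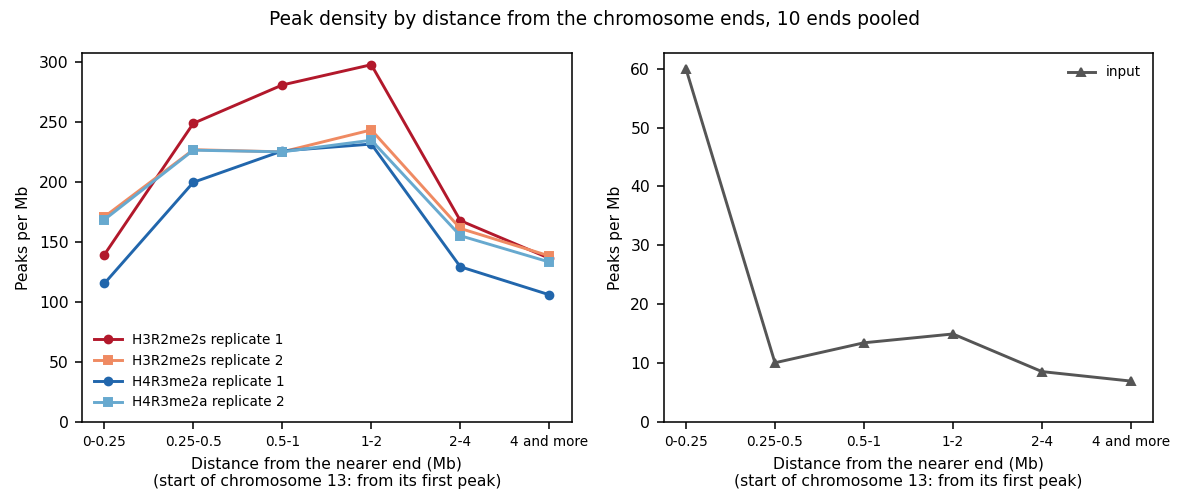
Peaks per Mb against distance from the nearer chromosome end (Mb), pooled over the 10 ends of chromosomes 11 to 15, with the start of chromosome 13 taken at its first peak, for the 4 ChIP lists (left) and the input (right, own scale); each point is 1 list. The ChIP lists peak between 1 and 2 Mb, and the input is highest, at 60, in the outermost 250 kb.

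End by end, the outermost 250 kb held fewer ChIP peaks per Mb than the zone from 1 to 2 Mb at 9 of 10 ends in each ChIP list. The exception in replicate 1 was the far end of chromosome 15, with 348 against 298 peaks per Mb for H3R2me2s and 260 against 213 for H4R3me2a. In replicate 2 it was the start of chromosome 12, with 252 against 241 and 244 against 226. Input density was higher in the outermost 250 kb at 9 of 10 ends, the far end of chromosome 15 being the exception with 8 against 15. Counted from position 1 the start of chromosome 13, with 0 against 16, was a second exception. At the start of chromosome 14 the ChIP lists stayed low over the whole first Mb, with 60 to 104 peaks per Mb in every list and zone, and then held 211, 218, 153 and 211 between 1 and 2 Mb.

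The density of the first and last 500 kb relative to the rest was near 1 in the ChIP lists, at 0.993, 1.10, 1.03 and 1.13, and 2.79 in the input. The marks differed by 0.0351, which was smaller than the spread between replicates (exact permutation test over libraries, two-sided p = 0.667). Within each replicate the marks differed by 0.0370 and 0.0331, of one sign and with an SD of 0.00279, but an exact paired permutation test over 2 pairs cannot give a p below 0.5. Among chromosomes the ratio was above 1 on chromosome 11, at 1.71, 1.59, 1.77 and 1.57. It was below 1 on chromosome 14, at 0.646, 0.799, 0.670 and 0.880, and on chromosome 13, at 0.608, 0.625, 0.625 and 0.625, where 1 of the 2 windows held no peak. The value depends on the window. With 250 kb windows the mean ratio was 0.843 for H3R2me2s and 0.867 for H4R3me2a, and with 1 Mb windows 1.30 and 1.35. Counting from the first peak of any list gave 1.18 and 1.22, and on chromosome 13 alone 1.23, 1.25, 1.29 and 1.25.

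Over the outer 2 Mb as a whole, again from the first peak, density was higher than in the rest by 1.84, 1.57, 1.88 and 1.60-fold. In the input it was higher by 2.66-fold, more than in any ChIP list. The ChIP ratio was 3.55, 2.22, 3.75 and 2.30 on chromosomes 1 to 5, 1.98, 1.46, 2.08 and 1.501 on chromosomes 6 to 10, and 1.04, 1.08, 1.08 and 1.09 on chromosomes 17 to 22. The input ratio of these 3 groups was 1.82, 1.71 and 1.79. Rich bins showed the higher ChIP density near the ends as a count. They were 47 of the 60 bins within 3 Mb of an end or, on chromosome 13, before or within 3 Mb of its first peak (78.3%). Of the 121 inner bins 40 were rich (33.1%). On chromosome 15 the order was turned, with 7 of 12 near the ends and 10 of 14 inside.

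In the replicate 1 lists 2 end windows held the highest folds among the end windows. The last 500 kb of chromosome 13 held an H3R2me2s replicate 1 peak of fold 57.8 and an H4R3me2a replicate 1 peak of fold 89.6, and the first 500 kb of chromosome 14 held peaks of fold 64.0 and 102 in the same lists, all as the authors' peak caller gave them. In the replicate 2 lists the highest folds in these windows were 10.17 and 7.996 on chromosome 13 and 9.93 and 10.5 on chromosome 14, below the 11.1 and 13.8 in the first 500 kb of chromosome 11. The windows on chromosomes 13 and 14 held 22 and 17 input peaks, with an input fold of up to 7.54 and 7.62. Both replicate 1 peaks named on chromosome 13 met the stretch chr13:18869623-18873863, of which 2 input peaks covered 24.9%.

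The marks followed each other closely along the 5 chromosomes. Over the 181 bins the Spearman correlation of cover between the marks was 0.993 in replicate 1 and 0.984 in replicate 2. Between replicates of one mark it was 0.955 for H3R2me2s and 0.940 for H4R3me2a. With the input it was between 0.371 and 0.424 for the 4 ChIP lists. These are descriptions across bins, which share libraries, depth, mappability and base composition and are not independent. Both marks of a replicate also shared a platform and a caller, and in replicate 1 a control.

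**Figure D4:**
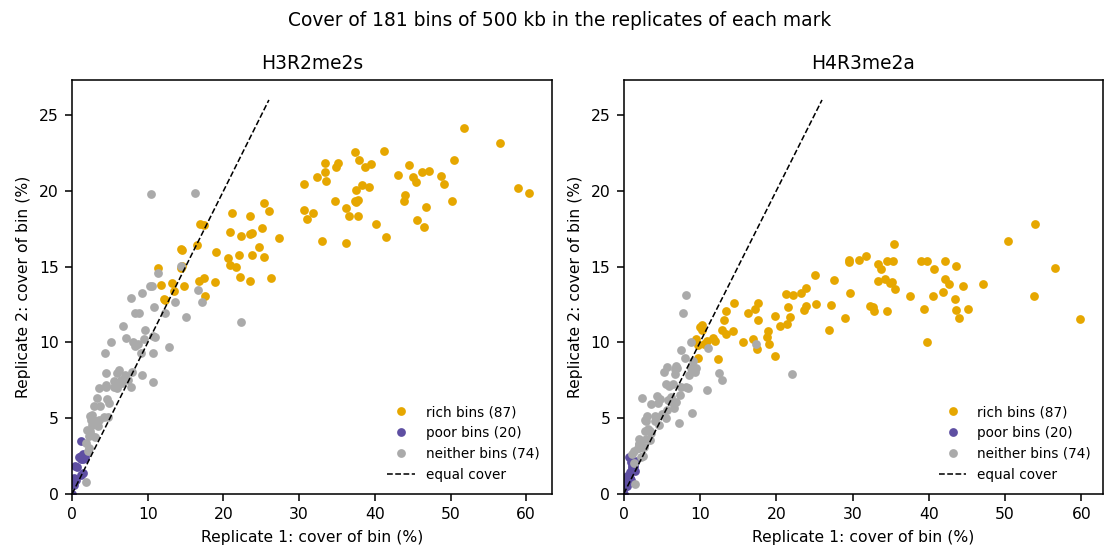
Cover (percent) of each of 181 bins of 500 kb in replicate 2 against replicate 1, for H3R2me2s (left) and H4R3me2a (right), with the line of equal cover. Rich bins lie mostly right of the line and reach at most 24.1% and 17.8% in replicate 2, and poor bins lie mostly above it.

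The replicates differed in range more than in order. Replicate 1 cover was above replicate 2 cover in both marks in 75 of the 87 rich bins and in 1 of the 20 poor bins. Over all rich bins replicate 2 cover was 0.578 of replicate 1 for H3R2me2s and 0.445 for H4R3me2a, and over all poor bins it was 1.88 and 1.65 times replicate 1. Rich and poor bins were called by cover in these same lists, so these values are in part set by the call. The highest bin reached 60.3% and 59.9% in the replicate 1 lists and 24.1% and 17.8% in the replicate 2 lists. The local background of the replicate 2 lists came from the ChIP library itself over a 10 kb window, per the file headers, and its part in the lower cover of rich bins was not tested.

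H4R3me2a cover was below H3R2me2s cover in most bins. It was above in 23 of 181 bins in replicate 1, 7 of them rich and 4 poor, and in 1 bin in replicate 2. The median log2 ratio of H4R3me2a to H3R2me2s cover over bins was −0.21 in replicate 1 and −0.50 in replicate 2, and H4R3me2a was above in both replicates in 1 of 181 bins. That bin, chr11:10000001-10500000, was a poor one with log2 ratios of 0.14 and 0.29. It held 4 and 7 H3R2me2s peaks and 4 and 11 H4R3me2a peaks, so the ratio rests on few peaks. On all other chromosomes H4R3me2a cover was lower as well, at 7.58 against 8.92% in replicate 1 and 5.77 against 8.42% in replicate 2. H4R3me2a was the shallower library in each replicate, and in replicate 2 its median width here was 432 bp against 628 bp. The parts of depth and width in the lower cover were not tested.

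At the low end of the ratio, by its mean rank over both replicates, chr11:13500001-14000000 had log2 ratios of −1.31 and −0.69 on 1 and 5 H4R3me2a peaks, and chr12:15000001-15500000 had −1.24 and −0.89 on 8 and 31 peaks. The lowest by this rank on chromosome 13 was chr13:6500001-7000000, at −0.72 and −0.74, although chr13:11500001-12000000 was lower in replicate 1, at −1.08 and −0.67. On chromosome 14 it was chr14:12000001-12500000, at −1.03 and −0.87. On chromosome 15 it was chr15:10500001-11000000, where 101 and 135 H3R2me2s peaks stood against 43 and 116 of H4R3me2a, with log2 ratios of −1.05 and −0.74. Unlike the other 4, this bin was well covered, to 16.2 and 19.8% by H3R2me2s and to 7.82 and 11.9% by H4R3me2a. Across the 180 bins with a ratio in both replicates, the Spearman correlation of the log2 ratio between replicates was 0.365.

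Peak by peak, H4R3me2a mostly sat on H3R2me2s: an overlap of at least 1 bp was found for 91.9% of its peaks in replicate 1 (Wilson 95% interval 91.4 to 92.4) and 82.9% in replicate 2 (82.3 to 83.5). The lists that were hit covered 18.1 and 12.3% of the length. On all other chromosomes, where the cover was 8.92 and 8.42%, the shares were 88.8 and 84.5%. The intervals cover counting error only. The reverse share, H3R2me2s on H4R3me2a, was 74.4 and 74.5%.

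Between replicates, 62.8% of the H3R2me2s peaks of replicate 1 (62.0 to 63.5) and 65.3% of the H4R3me2a peaks (64.5 to 66.2) overlapped a replicate 2 peak, against 66.5 and 69.1% on all other chromosomes. In the other direction it was 67.1 and 61.4% of the replicate 2 peaks, against 54.8 and 49.7%. Chromosomes 11 to 15 were therefore below the pool of all other chromosomes in one direction and above it in the other. The shares of replicate 1 peaks were 62.6 and 63.5% on chromosomes 17 to 22 and 62.7 and 61.6% on chromosomes 23 to 28. For replicate 2 peaks these groups had 73.3 and 67.2% and then 81.2 and 76.6%, so they lay further above the pool. The cover of the replicate 1 lists, 18.1 and 16.0% here, was also higher than the 8.92 and 7.58% elsewhere. With both lists limited to their upper 50% by fold, 23.9 and 27.2% of replicate 1 peaks overlapped.

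Bases covered in both replicates of a mark gave 10667 shared H3R2me2s regions and 9101 shared H4R3me2a regions, and 7427 regions lay in all 4 lists. Regions in all 4 lists had a median length of 429 bp, covered 3.94% of the length and numbered 82.4 per Mb, against 44.2 per Mb on all other chromosomes. From chromosome 11 to 15 they rose from 59.5 to 73.8, 90.2, 100.004 and 102 per Mb. Of the shared H4R3me2a regions 78.5% overlapped a shared H3R2me2s region (77.6 to 79.3), close to the 78.2% elsewhere, and in the other direction it was 65.4%, against 62.4%. Few regions had 1 mark alone. Of the shared H3R2me2s regions 619 (5.80%) met no H4R3me2a peak of either replicate, and of the shared H4R3me2a regions 188 (2.07%) met no H3R2me2s peak, against 7.05 and 2.37% on all other chromosomes. Those regions were short, with medians of 394 and 285 bp against 560 and 459 bp for the others, and elsewhere such regions had medians of 391 and 292 bp.

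One region per chromosome had the best mean rank of fold over the 4 lists among regions off the input peaks. On chromosome 11 it was chr11:2146103-2146924, with folds of 18.7, 11.5, 39.0 and 11.7, inside the rich run at that end. On chromosome 12 it was chr12:19252900-19253338, with folds of 22.4, 5.07, 36.4 and 6.08. On chromosome 13 it was chr13:12085008-12085637, with 15.4, 7.15, 33.3 and 9.20. All 5 regions were under 1 kb long and lay within single peaks of each list. Those of chromosomes 14 and 15 were chr14:9020838-9021229, with folds of 19.2, 9.53, 32.2 and 9.28, and chr15:5028353-5028685, with 18.7, 6.31, 27.0 and 6.95.

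Long blocks of neighbouring peaks were a feature of the replicate 1 lists. A chain was 5 or more peaks of 1 list with gaps of up to 1 kb. Chains held 27.7% of the H3R2me2s and 22.8% of the H4R3me2a peaks of replicate 1, against 18.4 and 15.3% on all other chromosomes. The shares were 9.51 and 7.40% on chromosomes 1 to 5 and 20.1 and 16.0% on chromosomes 6 to 10. They were higher than here on chromosomes 17 to 22, at 32.5 and 27.8%, and on chromosomes 23 to 28, at 40.9 and 33.3%. For replicate 2 the shares on chromosomes 11 to 15 were 0.212 and 0.430%, against 0.152 and 0.419% on all other chromosomes. The longest was an H3R2me2s replicate 1 chain of 27 peaks, chr14:14834168-14906272, 72.1 kb long. It was covered to 88.2% by H3R2me2s and 93.8% by H4R3me2a in replicate 1 and to 18.2 and 8.45% in replicate 2, and it held 22 and 13 peaks of the replicate 2 lists and no input peak.

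The longest H3R2me2s replicate 1 chains of the other chromosomes were chr11:20595819-20652266 at 56.4 kb, chr12:10149930-10212135 at 62.2 kb, chr13:13095647-13144849 at 49.2 kb and chr15:10011171-10056340 at 45.2 kb. H4R3me2a replicate 1 covered them to between 70.9 and 92.4%, and none held an input peak. The longest H4R3me2a replicate 1 chain of chromosome 12, chr12:2685022-2745825, 60.8 kb long, was unlike them in that it held 7 input peaks covering 3.42% of it. In replicate 2 the longest chains were 6.90 kb for H3R2me2s and 5.48 kb for H4R3me2a. Replicate 2 had no chain on chromosome 11 for H3R2me2s and none on chromosome 12 for H4R3me2a.

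When gaps of up to 3 kb were allowed, a setting chosen after the data were seen, chains held 64.2, 20.8, 57.7 and 16.9% of the peaks, against 47.3, 13.3, 41.3 and 11.6% on all other chromosomes. The shares were again higher on chromosomes 17 to 22, at 72.2, 21.6, 65.6 and 18.7%. Chromosomes 11 to 15 then had 15 H3R2me2s and 12 H4R3me2a blocks of 100 kb or more in replicate 1, in a spanned length of 90.2 Mb. All other chromosomes had 75 and 50 in 942 Mb, and among them chromosomes 17 to 22 had 31 and 18 in 56.9 Mb. Replicate 2 had none, on chromosomes 11 to 15 or elsewhere. On chromosomes 11 to 15 the longest was the H3R2me2s block chr15:4536389-4771529, 235 kb with 116 peaks, at the start of the rich run of chromosome 15. Among the H3R2me2s blocks, those of 228 kb at chr13:17782205-18010420 and 204 kb at chr14:14814038-15017609 followed. The longest H4R3me2a block, chr14:14793040-15012766, was 220 kb long and overlapped the latter. The 15 H3R2me2s blocks were spread as 1 on chromosome 11, 2 on 12, 4 on 13, 5 on 14 and 3 on 15.

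**Figure D5:**
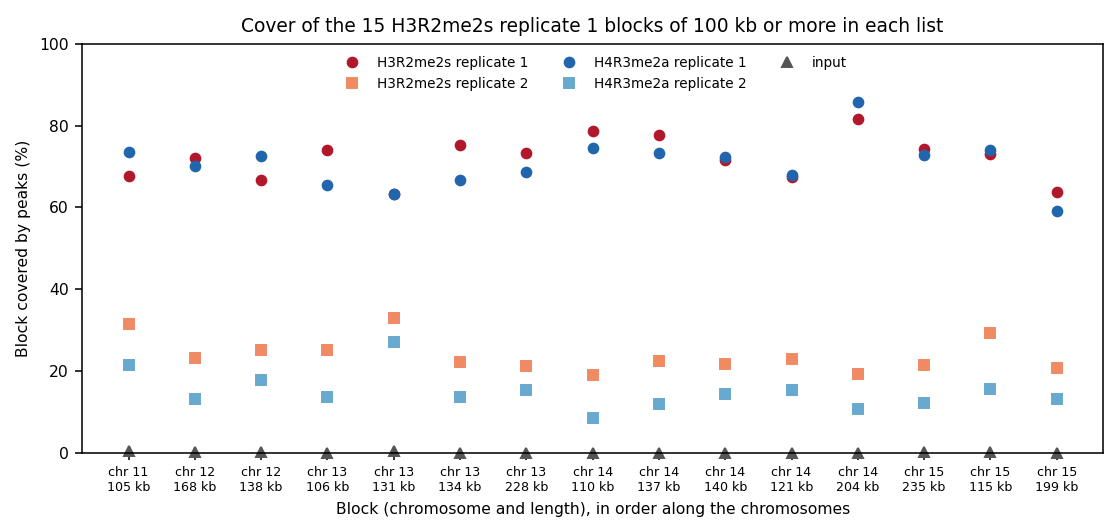
Percent of each of the 15 H3R2me2s replicate 1 blocks of 100 kb or more that was covered by peaks in each of the 5 lists; the axis gives chromosome and length of each block in order along the chromosomes. Replicate 1 of both marks covered from 59.2 to 85.7% of each block and replicate 2 from 8.48 to 32.9%.

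In these 15 blocks cover by H3R2me2s was 63.3 to 81.7% in replicate 1 and 19.0 to 32.9% in replicate 2, and cover by H4R3me2a was 59.2 to 85.7% and 8.48 to 27.1%. Every block thus held peaks of both marks in both replicates, but so did 180 of the 181 bins of 500 kb, which are longer. The replicates did not overlap in cover. For comparison, replicate 2 cover of H3R2me2s and H4R3me2a was 18.1 and 12.6% over the rich bins and 12.3 and 8.63% over all bins. Input cover of the blocks was at most 0.430%. Since the blocks were chosen for their H3R2me2s replicate 1 peaks, the cover in that list is a description of the choice. H4R3me2a replicate 1 followed that list closely over bins (Spearman correlation 0.993). Its cover here, and the gap between replicates in these blocks, are therefore not independent of the choice.

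Runs of regions present in all 4 lists were short. The longest on each chromosome were chr14:14402151-14407456 with 5.31 kb, chr11:2676375-2681224 with 4.85 kb, chr12:2158874-2163274 with 4.40 kb, chr13:18869623-18873863 with 4.24 kb and chr15:8159408-8163137 with 3.73 kb. Each overlapped input peaks, which covered 25.97, 4.66, 21.2, 24.9 and 3.27% of them. The longest stretches of agreement between the lists were therefore also places with input peaks, and the part of the input in them was not tested.

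Chromosomes 11, 12 and 13 each held 1 stretch of almost exactly 500 kb with no peak in any of the 5 lists. These were chr11:2688179-3187889 at 499.7 kb, chr12:2978596-3478548 at 499.95 kb and chr13:1-500305 at 500.3 kb, and chromosomes 14 and 15 had none. The first began in the bin after a rich run, the second at the end of one, and the third was the start of chromosome 13. In the whole genome 7 chromosomes had a peak-free stretch within 10 kb of 500 kb and 10 had one within 10 kb of 1500 kb, with 0 stretches of a length between these. Whether the assembly holds sequence in these stretches was not tested, since no genome was used. Leaving them out of the length raised the density of chromosomes 11 to 15 from 172 to 174 and from 162 to 165 peaks per Mb for H3R2me2s and from 134 to 136 and from 157 to 160 for H4R3me2a.

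Other stretches without a ChIP peak were shorter and more varied. On chromosome 11 the next were 267 kb and 186 kb long, the second being chr11:10206440-10392594. The longest on chromosome 12 after the empty stretch was 136 kb, at chr12:7858344-7994216, and on chromosome 13 it was 107 kb, at chr13:14952584-15059966. The longest on chromosome 14 was 106 kb, at chr14:11731393-11837571, and on chromosome 15 it was 125 kb, at chr15:3253054-3377811. None of these held an input peak either. Of 50 kb bins, 20 of 411 on chromosome 12 and 14 of 378 on 13 had no ChIP peak. On chromosome 14 it was 4 of 316, and on chromosome 15 it was 4 of 259. In all 5 chromosomes 87 of 1803 (4.83%) had none, near the 5.65% of the genome. These counts include the bins inside the empty stretches of almost 500 kb on chromosomes 11, 12 and 13, and the genome share includes such stretches too.

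The 903 input peaks showed where sequence without antibody already gave peaks. The bin with most of them was chr13:500001-1000000, directly after the empty start of chromosome 13, with 48 peaks covering 2.68% of the bin and with 118, 107, 99 and 104 ChIP peaks. The next were chr14:14000001-14500000 with 26 and, with 22 each, chr12:1500001-2000000 and chr14:15500001-15819350. Chromosome 11 had most in its first bin, with 14, and chromosome 15 had 11 both in its first bin and in chr15:6500001-7000000. All 7 bins held peaks of both marks in both replicates, but so did 180 of the 181 bins, so this does not set them apart. Of the 181 bins 23 held no input peak, against 213 of the 2064 bins of the genome.

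Input peaks met the replicate lists unequally. Of the 903, 94.5% overlapped an H3R2me2s peak of replicate 2 (92.8 to 95.8) and 92.7% an H4R3me2a peak of replicate 2 (90.8 to 94.2), but 57.0% (53.8 to 60.2) and 65.9% (62.7 to 68.9) did so in replicate 1, although the replicate 1 lists covered more of the length. The same inequality held on all other chromosomes, with 88.8 and 87.1% in replicate 2 and 48.5 and 51.0% in replicate 1. Replicate 1 was called against a control and replicate 2 was not. Seen from the marks the overlap was small. Input peaks met 4.01% of the shared H3R2me2s regions and 5.59% of the shared H4R3me2a regions, against 5.62 and 7.33% on all other chromosomes. Of the ChIP peaks of the single lists, 2.74, 4.87, 4.12 and 5.07% overlapped an input peak.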

How the data were processed

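Each of the 5 libraries has its own peak list as deposited by the authors. Per the file headers, replicate 1 lists were called with MACS 1.4.2 at a p cutoff of 1e-05 against a control library of 23.3 M tags, and replicate 2 and input lists with MACS 2.0.10.20120913 at a q cutoff of 0.05 without a control. The background window was 10 kb, and 1 kb as well in replicate 1, per the file headers. Replicate 1 was size selected to 100.0 to 250.0 bp, per the labels' protocols. The words lifescope and gal3 occur in paths within the SOLiD headers, and for the Illumina lists neither aligner nor build is given in the sources used here.

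The deposited values are the pileup signal in the Illumina lists and the tag count in the SOLiD lists, fold enrichment as a ratio in all lists, −log10 p-value and q-value in the Illumina lists, and a score of 10 times the −log10 p and a false discovery rate in percent in the SOLiD lists. Positions were used, and folds as the authors deposited them only to describe and rank peaks within a list, since folds are not levels that can be set across lists. Depth is that in the headers, 14.2 and 35.1 M tags for H3R2me2s replicate 1 and 2, 10.3 and 31.2 M for H4R3me2a and 27.1 M for the input.

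A peak was placed by its midpoint for densities and by its bases for cover. Length was the highest peak end of any list. Bins were 500 kb, and a last bin under 250 kb was joined to the one before. Overlap needed 1 bp, and intervals are Wilson 95% intervals, which cover counting error only. Marks were compared by an exact permutation test over the 4 ChIP libraries. No test was run over peaks or bins. With 2 libraries a mark, the p-values rank the mark difference only among relabelings of these 4 libraries. The spread within a mark goes with platform, caller and use of a control, so it is not replicate variation alone. The named regions follow a fixed rule per chromosome: end windows, bins of highest and lowest mean rank of cover, longest rich and poor runs, longest chains, longest empty stretches, the bin with most input peaks, the best ranked region off the input and the bins of extreme ratio between marks. Other places were named after their values were seen: the replicate 1 maximum of chromosome 14, bins next to or tied with those of the rule, the further rich runs, the shorter empty stretches and the blocks at 3 kb gaps. The chromosomes, rules and alternatives were chosen with earlier results of these data known. Binning, cover and rich calls were tested on simulated peaks. Python 3.11.15, numpy 2.4.6, pandas 2.3.3, scipy 1.17.1 and matplotlib 3.10.9 were used. The labels name different breeds in different fields, so none is given.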

Additional observations from a re-analysis of the deposited data

How the results depend on the processing

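Of 78 alternative values for 15 results, 25 moved beyond the spread or threshold and 3 turned, all of them end ratios that went from above to below 1; 8 were chosen after seeing the data. Leaving out 1 replicate gave density ratios to chromosomes 1 to 5 of 1.63 and 2.52 (H3R2me2s) or 1.68 and 2.72 (H4R3me2a). These could not count as moved, since each of 2 lists always lies within their SD of the mean. Chain shares of 0.212 and 27.7% (H3R2me2s) did not count as moved for the same reason. The count of moved values is thus in part set by this rule. No other alternative moved the density ratios, but the SDs they were judged against were wide, at 0.635 and 0.736. End ratios fell below 1 with 250 kb windows (0.843 for H3R2me2s, 0.867 for H4R3me2a) and, for H3R2me2s, without replicate 2 (0.993), and moved with 1 Mb windows (1.30, 1.35), counting from the first peak (1.18, 1.22) and, for H4R3me2a, the upper 50% by fold (1.16); with 1 replicate left out they ran from 0.993 to 1.10 and from 1.03 to 1.13. Under the upper 50% by fold 36 bins were rich and 13 poor, against 9.21 and 14.7% of the bins of the genome. Without replicate 1 there were 92 rich and 24 poor bins, against 23.69 and 22.97% of the genome. Without replicate 2 there were 94 rich and 20 poor bins, against 23.89 and 21.95%. The main call gave 87 and 20, against 20.8 and 16.9%. Calls without 1 replicate had to hold in fewer lists, and the genome shares rose too, so the counts alone do not show stability. Shares in chains were 42.5 and 37.3% with gaps of 3 kb, 28.7 and 25.7% with 2 kb, 4.59 and 3.84% with 500 bp and 7.48 and 7.29% in the upper 50% by fold, and ran from 0.212 to 27.7% and from 0.430 to 22.8% by replicate. Overlap between replicates was 59.6% (H3R2me2s) and 62.8% (H4R3me2a) when 50% of the shorter peak had to be shared, and 23.9 and 27.2% in the upper 50% by fold. Input overlap of shared regions under these settings was 3.38 and 10.3% for H3R2me2s and 5.12 and 12.2% for H4R3me2a, and 2.74 to 4.87% and 4.12 to 5.07% in single replicates. Overlap of H4R3me2a with H3R2me2s regions was 76.4 and 50.3%, and 82.9 to 91.9% in single replicates. The cause of these moves was not tested. A cut by fold leaves fewer peaks, and the part of the lower peak number was not tested either.

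With the replicate number as a replicate block, the mark difference in density ratio stayed 0.129 (exact paired permutation p = 0.5, the smallest possible) and that in end ratio 0.0351 (exact permutation p = 0.5); in single replicates they ran from 0.0581 to 0.201 and from 0.0331 to 0.0370. The number goes with the platform and the caller, and the labels do not say whether it also marks an animal. No alternative could be run for the sequences and genes under the regions. Depth ran from 10.3 M tags in H4R3me2a replicate 1 to 35.1 M in H3R2me2s replicate 2, and a peak missing from a list was not detectable there at its depth and threshold, not shown to be absent.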

Other observations

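Among the few clusters of input peaks listed for each chromosome, some stood where the peaks of chromosomes 11, 12, 13 and 15 begin. Those listed for chromosome 14 lay elsewhere, which does not show that its start lacked input peaks. The outermost 250 kb at that start held 64 input peaks per Mb, against 32 at the start of chromosome 15. The first 7.80 kb of chromosome 11, chr11:63-7863, held 9 input peaks covering 34.4% of that stretch, and the ChIP lists covered 55.8, 43.2, 92.4 and 41.7% of it. The start of chromosome 12, chr12:76-14708, also held 9, covering 42.2%, and the ChIP lists covered 83.8, 44.7, 83.7 and 42.6% of it. On chromosome 13 a cluster of 10 stood at chr13:500535-515269, and on chromosome 15 one of 3 at chr15:461-8453. A cluster of 4 input peaks at chr11:3269852-3272336, beyond the empty stretch of that chromosome, was covered to 65.7 and 59.7% by the replicate 2 lists and held no peak of either replicate 1 list. On chromosome 12 a larger cluster of 16 input peaks stood at chr12:1875880-1904334, inside the longest rich run. On chromosome 14 a cluster of 11 stood at chr14:15591249-15613146, where replicate 1 covered 64.0 and 69.8%. These are values without a test, and the sequence under the clusters was not determined.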
